A study of Oryctolagus cuniculus with 20 samples.

Results

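This comparison sets condylar cartilage of rabbits 4 weeks after internal derangement of the temporomandibular joint (TMJ, the jaw joint) against condylar cartilage of untreated rabbits. It takes 8 of the 20 one-colour Agilent arrays of the series, chosen by their titles: 4 labelled as 4 weeks after derangement and 4 labelled as control. The 4-week samples are total RNA of left joints that had been subjected to derangement, and the control samples come from rabbits without any treatment. Both groups are male and 6 months old. The design text describes the 4 control rabbits and those of each time after derangement as separate groups, so each array was treated as 1 rabbit. How derangement was produced and which joint was taken from control rabbits are not given in the sources used here. There is no sham group, and the control carries no time label, so the effect of the procedure itself or of time passed cannot be told apart from that of derangement.

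The mandibular condyle is capped by a fibrocartilage that carries the load of the jaw and, in growing animals, is also a growth site. A fibrous surface layer rich in type I collagen lies over proliferating cells, then over chondrocytes that make type II collagen and aggrecan, and last over hypertrophic cells that make type X collagen and lead into bone. Internal derangement means an abnormal relation of the articular disc to the condyle, and in animals it is used as a model of degenerative change in the joint. Chewing muscles insert close to the condyle, and bone marrow and synovium lie next to it.

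Levels are log2 units relative to the 75th percentile of each array's signal, so that 0 is the level of a fairly bright probe and 1 unit is a doubling. A difference is the 4-week mean minus the control mean on that scale, and SE is its standard error in a limma model of all 5 groups. A probe or gene was called at an adjusted p under 0.05, by the Benjamini-Hochberg method over all kept probes. Type I collagen (COL1A2) lay between 9.18 and 9.75 at 4 weeks and between 9.41 and 10.01 in control, and type II collagen (COL2A1) between 9.34 and 10.44 at 4 weeks and between 8.48 and 9.46 in control, so the defining collagens of the labelled tissue were bright on all 8 arrays. Haemoglobin (HBA and HBB2) and neutrophil granule transcripts were well above background on all 8 arrays too.

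Across arrays, the 75th percentile of signal was 398.9 to 642.9 at 4 weeks and 320.2 to 485.9 in control, and the share of spots well above background was 58.47% to 61.03% at 4 weeks and 54.52% to 58.54% in control. Array correlations over the kept probes were 0.971 to 0.986 within the 4-week group, 0.956 to 0.98 within control and 0.93 to 0.972 between them. The 4-week arrays were on slide 4 and scanned on day 2, while the control arrays were on slide 1 and scanned on day 1. Neither term could be estimated beside the groups, so slide and scan day cannot be told apart from derangement in any result below. The 1-week and 8-week arrays share the scan day of the 4-week arrays, and the 2-week arrays share that of control.

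Of 25512 kept probes, 2170 were called (8.51%): 1592 were higher at 4 weeks (6.24%) and 578 were lower (2.27%). Among 715 named genes measured, 114 were called (15.9%): 70 were higher (9.79%) and 44 were lower (6.15%). The 2 groups did not overlap in 4554 kept probes (17.9%) and in 175 named genes (24.5%). The rises were many and dim, while the falls held the largest changes. Of the probes called higher, 467 were above background on no control array. The median level of the probes called higher was -2.07 at 4 weeks and -3.18 in control, and that of the probes called lower was -0.34 at 4 weeks and 0.87 in control. Of the called probes, 73.4% were higher, against 50.9% (1203 higher and 1160 lower) when arrays were centred on their median, which moved the median difference of all kept probes from 0.03 to -0.10.

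The share of rises followed the brightness of the probe. With the kept probes cut into 5 bins of mean level, 16.1% were called higher and 2.53% lower in the dimmest bin, while in the brightest 0.921% were called higher and 4.25% lower. The median difference was 0.25 in the dimmest bin and -0.08 in the brightest. Probes called higher were also richer in G and C: 26.3% had a GC content of 55% or more, against 7.09% of probes called lower and 9.88% of those not called. The probes called higher had a median level of -2.03 at 1 week and -2.17 at 8 weeks, the groups scanned on the same day as 4 weeks, and -2.83 at 2 weeks. The 21 named genes called higher that were above background on no control array passed the filter through the 4-week group alone. The 10 called lower with no 4-week array above background passed it through control alone. Because the filter favours such patterns, absence from 1 group is no separate support for a change. Of the 21 rises, none was called with a normexp background correction fitted without spots dimmer than their local background. With normexp on all spots, FMO2 (-0.07), KCNA3 (-0.07), KCNA5 (-0.07), KCNC1 (-0.23), SLC47A2 (-0.15), TRPC1 (-0.21) and VDR (-0.01), all rises described below, had differences under 0. The part of brightness, base composition and scan day in the called rises was not tested.

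**Figure D1:**
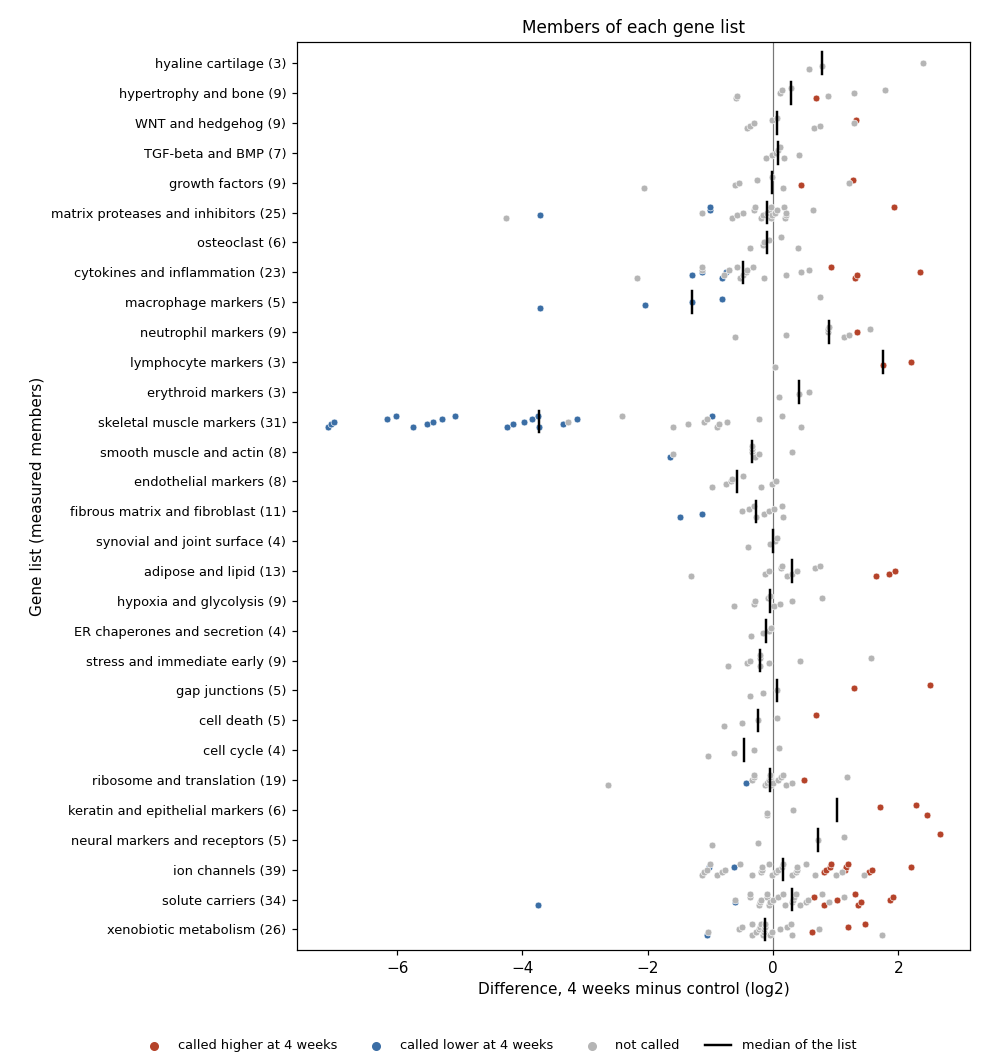
Difference between 4 weeks and control (x axis, log2) of each measured member of the gene lists (rows, with the number measured), coloured by the call, and each list's median as a black bar. The skeletal muscle list lies far to the left with a median of -3.73, most other medians lie within 1 unit of 0, and the called rises are spread over ion channels, solute carriers and small lists.

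Of the gene lists, skeletal muscle transcripts had the lowest median difference. Of 31 measured members of the skeletal muscle list, 19 fell and none rose, where 6.15% of all named genes were lower. The median difference was -3.73, against 0.03 over all kept probes and -0.02 over all named genes. The list holds the sarcomere's myosins, troponins and titin together with the calcium pump, calcium store and energy enzymes of the muscle fibre. With normexp background correction without spots dimmer than their local background, 12 members fell, none rose, and the median was -2.0. Among named genes that were called and did not overlap between the groups, the 12 with the largest fitted falls are all known from muscle. Fewer muscle fibres in the sample and less RNA per fibre cannot be told apart in bulk RNA, here or for any other cell type below.

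TNNC2, the fast-fibre troponin that binds calcium, had levels of -3.07, -2.64, -3.11 and -3.36 at 4 weeks, against 5.57, 7.73, 1.98 and 0.96 in control. Every control array lay above every 4-week array, and within control the levels spread over more than 6 units. The difference was -7.11 (SE 1.05, adjusted p = 0.000323). This SE, like the others, rests on a spread pooled over all 5 groups, so the wide control spread is averaged with that of the other groups. With the 8 arrays alone, 24 named genes were called lower, 17 of them among the 44 falls of the main fit. CKM, the muscle creatine kinase that regenerates ATP, had -5.81, -3.22, -4.62 and -5.89 at 4 weeks, against 1.20, 4.38, -0.77 and -3.20 in control. Control replicate 4 was level with the highest 4-week array, and the other control arrays lay well above. Its difference was -5.29 (SE 1.09, adjusted p = 0.00551). ATP2A1, the calcium pump of fast fibres, differed by -6.02 (SE 1.06, adjusted p = 0.00152) and TTN, the giant spring protein titin, by -5.43 (SE 0.98, adjusted p = 0.0018). CKM, ATP2A1 and MYH1 were above background on 1 of the 4 arrays at 4 weeks and TTN on 2, so these sizes are fitted values that rest in part on dim spots.

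The myosin heavy chains are the motor proteins of the sarcomere, each typical of a fibre type or stage. MYH2, the chain of fast oxidative fibres, was well above background on no 4-week array and was at least 82.5-fold lower there (adjusted p = 0.000879). All 6 of its kept probes were called lower. MYH7, the slow-fibre chain, was at least 44.6-fold lower (adjusted p = 5.54e-05), MYH8, the perinatal chain, at least 27.6-fold (adjusted p = 0.00253) and MYH3, the embryonic chain, at least 7.48-fold (adjusted p = 0.00886). MYH7 had levels of -4.17, -4.85, -4.83 and -4.84 at 4 weeks, against 2.21, 3.47, 1.05 and -0.77 in control, so slow-fibre myosin was separated between the groups as the fast ones were. MYH1, another fast chain, differed by -5.75 (SE 1.14, adjusted p = 0.00398). These genes are close paralogs, so a probe of one may also bind transcripts of another, and the number of chains lowered is uncertain. For such a bound, the dim group's level on an array was raised to the dimmest signal that passed as above background there, if it lay below it. The bound compares group means of the processed signal, so single control arrays can lie nearer, and another background correction can give less. Without control replicates 1 and 2, the fitted differences were -4.39 in MYH2, -4.82 in MYH7, -3.83 in MYH8 and -4.48 in MYH3. In the main fit they were -7.01, -6.16, -7.05 and -5.07.

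Probes of 2 of these genes are shown because they carry the fall, one in a motor protein and one in an enzyme. Each is the 60-base probe as deposited with the arrays, with no base marked.
MYH2: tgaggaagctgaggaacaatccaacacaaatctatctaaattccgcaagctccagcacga
CKM: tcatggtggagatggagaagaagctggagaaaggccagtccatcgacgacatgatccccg

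In CASQ2, which stores calcium in the fibre, the 4-week level was at least 9.18-fold lower (adjusted p = 0.00661), and in SYPL2, a membrane protein of the muscle triad, at least 9.05-fold lower (adjusted p = 0.014). SYPL2 lost its call without 4-week replicate 2 or control replicate 1 (adjusted p up to 0.0539). ANKRD1, a titin-binding stress protein of muscle, was at least 5.65-fold lower by its brightest probe (adjusted p = 0.00412), which was above background on no 4-week array, while another probe was on at least 1. Some members had values that did not pass: ACTA1, skeletal actin, differed by -1.60 (adjusted p = 0.0587) and TNNI2, a fast troponin, by -2.41 (adjusted p = 0.098). ACTA1 stayed bright at 4 weeks, between 2.43 and 2.69, against 2.86 to 6.52 in control. Both were chosen after their values were seen.

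**Figure D2:**
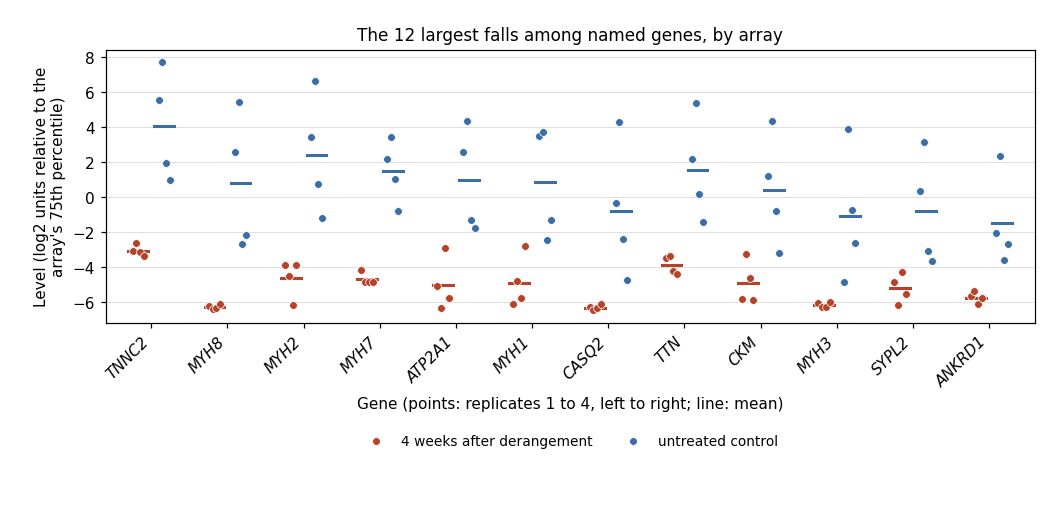
Level of the 12 named genes with the largest falls (y axis, log2 relative to the 75th percentile) on each 4-week array (red) and each control array (blue), with the group mean as a line. All red points lie below the blue mean of their gene and spread most in ATP2A1, MYH1 and CKM, and the blue points spread over several units in each gene, with replicate 2, the second blue point, highest for all 12 genes.

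The size of the fall rested on the control arrays. Control replicate 2 was the highest control array in 29 of the 31 members. The summed linear level of the list, in multiples of the 75th percentile, was 29, 27.4, 25.2 and 24 at 4 weeks and 172, 834, 48.6 and 35.1 in control. It was 26.7 to 34.8 at 1 week, 27.4 to 34.3 at 2 weeks and 25.3 to 31.9 at 8 weeks, so all 4 control sums lay above those of every other array of the series, those of the shared scan day included, and replicates 1 and 2 far above. Without those 2 control arrays, a choice made after the values were seen, 11 members were called lower, none higher, and the median difference was -1.36. TNNC2 (adjusted p = 0.00123), MYH2 (0.00763), MYH7 (0.00214) and TTN (0.0116) were still called lower in that fit, and CKM (0.0782) and MYH1 (0.0835) were not.

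Several macrophage genes were lower at 4 weeks. Of 5 measured macrophage markers, 4 fell and the median difference was -1.29, beside 6.15% lower over all named genes. The summed level of the 5 was 4.8, 4.59, 2.85 and 2.6 at 4 weeks and 9.25, 6.15, 7.81 and 5.76 in control, with no overlap. It was 2.98 to 5.46 at 1 week, 3.18 to 6.61 at 2 weeks and 2.71 to 5.61 at 8 weeks.

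CD14, the lipopolysaccharide co-receptor of monocytes, had levels of 1.57, 0.77, 0.78 and 0.54 at 4 weeks, against 2.57, 1.91, 2.33 and 2.01 in control. Every 4-week array lay below every control array, and the difference was -1.29 (SE 0.30, adjusted p = 0.0134), a level 2.45-fold lower. TLR4, the receptor that CD14 serves, had -0.24, -0.73, -0.94 and -1.07 at 4 weeks, against 0.15, 0.05, 0.16 and -0.08 in control. Its groups did not overlap either, and it differed by -0.82 (SE 0.25, adjusted p = 0.0475). MSR1, a scavenger receptor of macrophages, differed by -2.05 (SE 0.58, adjusted p = 0.0353), and was above background on 2 of 4 arrays at 4 weeks and on all 4 in control. APOE, a lipoprotein that macrophages also make, was not called at 0.75 (adjusted p = 0.403).

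MMP12, the elastase of macrophages, had levels of -2.32, -5.11, -6.02 and -4.61 at 4 weeks, against 0.45, -1.14, 0.09 and -2.57 in control. One 4-week array reached the lowest control array, and the others lay below all of them. The difference was -3.72 (SE 0.92, adjusted p = 0.0175), and MMP12 was above background on 1 of 4 arrays at 4 weeks and on all 4 in control. Its probe is shown because it carries the largest called fall among the measured macrophage markers.
MMP12: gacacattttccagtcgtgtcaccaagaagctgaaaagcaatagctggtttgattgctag

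Leaving out any 1 array kept all 4 differences below 0: they were -1.17 to -1.51 in CD14, -0.71 to -0.98 in TLR4, -1.45 to -2.67 in MSR1 and -3.22 to -4.45 in MMP12. The calls were near the threshold and were lost in some of these fits. CD14 lost its call without 4-week replicate 4 or control replicate 1 (adjusted p up to 0.053), and MMP12 without 4-week replicate 2 or 3 or control replicate 1 or 3 (up to 0.0664). MSR1 lost it without 4-week replicate 2, 3 or 4 or control replicate 1, 2 or 3 (up to 0.118), and TLR4 in 7 of the 8 fits, all but the one without 4-week replicate 1 (up to 0.143). Without control replicates 1 and 2, the arrays of highest muscle transcripts, the differences were of similar size, at -1.26 in CD14, -0.78 in TLR4, -1.95 in MSR1 and -3.28 in MMP12, and none was called with 2 control arrays left (adjusted p = 0.11, 0.252, 0.22 and 0.179).

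Of 25 measured matrix proteases and inhibitors, 3 fell and 1 rose, a share near the 15.9% called over all named genes, with a median difference of -0.10. None was called without control replicates 1 and 2. PLAU, the urokinase that activates plasminogen, had levels of 2.34, 2.49, 2.12 and 2.30 at 4 weeks, against 3.68, 3.44, 3.58 and 2.61 in control. All control arrays lay above all 4-week arrays, and the difference was -1.01 (SE 0.23, adjusted p = 0.0117), a level 2.02-fold lower. PLAU kept its call without any single array, but not without control replicates 1 and 2 together, where it differed by -0.78 (adjusted p = 0.197). MMP3, stromelysin, which degrades proteoglycans, had -0.55, -1.36, -1.47 and -1.30 at 4 weeks, against -0.53, 0.17, 0.11 and -0.37 in control. The groups nearly met, and the difference was -1.01 (SE 0.26, adjusted p = 0.022). MMP3 lost its call without 4-week replicate 2, 3 or 4 or control replicate 2 or 3 (adjusted p up to 0.0732).

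MMP1, interstitial collagenase, had levels of -4.21, -3.39, -5.47 and -4.84 at 4 weeks, against 0.91, -0.15, -1.51 and -0.11 in control. It lay lower on every 4-week array, yet the difference of -4.26 (SE 1.36, adjusted p = 0.0595) did not pass, and the spread within both groups was wide. Of its 4 kept probes, 1 was called lower. MMP13, the collagenase of hypertrophic cartilage, differed by -0.58 (adjusted p = 0.187), MMP9, the gelatinase of osteoclasts, by -0.06 (adjusted p = 0.889), and the aggrecanase ADAMTS5 by -0.30 (adjusted p = 0.512). TIMP1, an inhibitor of these enzymes, differed by 0.06 (adjusted p = 0.909). SERPINB2, an inhibitor of urokinase, rose at least 1.8-fold (adjusted p = 0.00302) and was above background on all 4 arrays at 4 weeks and on none in control. Its probe passed the filter through the 4-week group alone. It was not called with normexp without spots dimmer than their local background.

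Among 23 measured cytokine and inflammation genes, 4 rose and 4 fell, and the median difference was -0.48. Over all named genes 9.79% were higher and 6.15% lower. There were 1 rise and 2 falls with normexp without dim spots, and 3 rises and no fall without control replicates 1 and 2. Of the 4 that fell, CD14 and TLR4 are described above. IL1RN, the natural antagonist of interleukin-1, had levels of 1.88, 2.03, 2.36 and 2.26 at 4 weeks, against 3.04, 3.33, 3.75 and 2.95 in control. The groups did not overlap, and the difference was -1.14 (SE 0.31, adjusted p = 0.0291), a level 2.2-fold lower. It lost its call without 4-week replicate 1, 2 or 4 or control replicate 1, 2 or 3 (adjusted p up to 0.0917). IL15, a growth factor of lymphocytes chosen after its values were seen, was the fourth at -0.75 (SE 0.21, adjusted p = 0.031), and it lost its call without 4-week replicate 3 or 4 or control replicate 1 or 2 (up to 0.111). The main interleukin-1 genes were not called: IL1A differed by 0.44 (adjusted p = 0.582) and IL1B by -0.57 (adjusted p = 0.646). CCL2, a chemokine that draws monocytes, differed by -1.13 (adjusted p = 0.0968), and PTGS2, the inducible prostaglandin enzyme, by -0.15 (adjusted p = 0.841).

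CXCR2, a neutrophil receptor for interleukin-8 that chondrocytes also carry, rose. Its levels were -0.27, -0.32, -0.54 and -0.09 at 4 weeks, against -1.89, -1.82, -1.54 and -1.31 in control. The lowest 4-week array lay above the highest control array, and the difference was 1.34 (SE 0.19, adjusted p = 0.000185), a level 2.53-fold higher. CXCR2 kept its call in each of the 8 fits that left out 1 array. Its close relative CXCR1 differed by 0.21 (adjusted p = 0.59). NOS2, the inducible nitric oxide synthase of activated chondrocytes and macrophages, was at least 1.49-fold higher (adjusted p = 0.000446), with all 4 arrays above background at 4 weeks and none in control. The NOS2 probe passed the filter through the 4-week group alone and was not called with normexp without dim spots.

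CXCL8, interleukin-8 itself, gave mixed values. Of its 4 kept probes, 3 overlap over 58 bases, shown in capitals, and these differed by 0.92, 1.18 and 1.27, of which the first and second were called.
CXCL8 probe 1: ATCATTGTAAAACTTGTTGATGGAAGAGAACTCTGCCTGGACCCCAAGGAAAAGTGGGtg
CXCL8 probe 2: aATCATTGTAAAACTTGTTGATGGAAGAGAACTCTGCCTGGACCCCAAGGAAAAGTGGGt
CXCL8 probe 3: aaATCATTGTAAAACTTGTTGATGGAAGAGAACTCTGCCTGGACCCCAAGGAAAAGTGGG
The fourth kept probe differed by -2.02 (adjusted p = 0.022), so the direction of CXCL8 depends on the probe. The brightest probe had -1.06, -1.02, -1.19 and -0.71 at 4 weeks, against -1.91, -2.31, -1.12 and -2.34 in control, with control replicate 3 among the 4-week arrays, and lost its call without 4-week replicate 2 or 4 or control replicate 1, 2 or 4 (adjusted p up to 0.098). TNF, the tumour necrosis factor gene, gave mixed values too. One of its 5 kept probes was called at 1.31 (SE 0.28, adjusted p = 0.00639), and the others differed by 0.39, 0.38, -1.07 and -1.23.

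**Figure D3:**
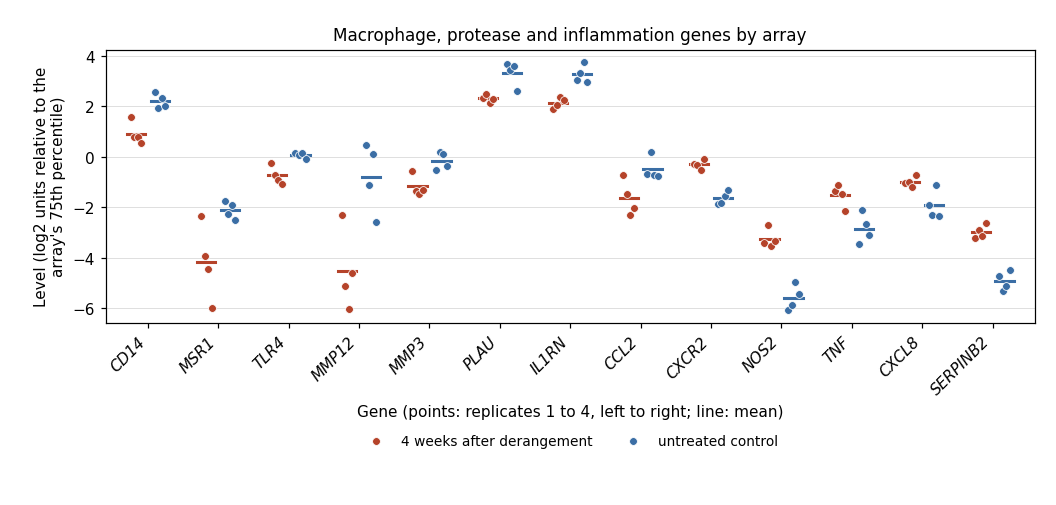
Level of macrophage, protease and inflammation genes (y axis, log2 relative to the 75th percentile) on each 4-week array (red) and each control array (blue), with the group mean as a line. CD14, TLR4, MMP3, PLAU and IL1RN lie lower at 4 weeks with little or no overlap, and CXCR2, NOS2 and SERPINB2 lie higher.

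Neutrophil granule transcripts varied from rabbit to rabbit in both groups. S100A8, a calgranulin, had levels of 3.24, 1.19, 5.95 and 5.73 at 4 weeks, against 1.74, 2.35, 2.18 and 4.98 in control, and CAMP, the antimicrobial cathelicidin, had 2.07, -0.27, 4.76 and 4.41 at 4 weeks, against 0.05, 0.69, 0.10 and 3.93 in control. In both genes 4-week replicates 3 and 4 and control replicate 4 were high, 4-week replicate 2 was the lowest 4-week array, and the groups overlapped. S100A8 differed by 1.22 (adjusted p = 0.697) and CAMP by 1.55 (adjusted p = 0.672). Of 9 neutrophil markers, CXCR2 alone was called, and the summed level was 78.3, 10.5, 449 and 372 at 4 weeks and 21.7, 31.8, 36.3 and 277 in control. CXCR2 did not share that order of arrays: its level on 4-week replicate 2, where the granule genes were lowest, was close to those on the other 4-week arrays.

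None of 3 measured hyaline cartilage genes was called. All had a difference above 0, and the median was 0.79. CNMD, chondromodulin, a glycoprotein of avascular cartilage, had levels of 3.95, 6.27, 3.84 and 4.04 at 4 weeks, against 0.85, 1.57, 2.56 and 3.56 in control. All 4-week arrays lay above all control arrays, but control replicate 4 came close, and the difference of 2.39 (SE 0.83, adjusted p = 0.0854) did not pass. Without control replicate 4 it was 2.87 and was called (adjusted p = 0.0476), and without 4-week replicate 2 it was 1.81 and was not (adjusted p = 0.267). COL2A1, type II collagen, differed by 0.79 (adjusted p = 0.39) and ACAN, the aggrecan core protein, by 0.58 (adjusted p = 0.377).

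Of 9 measured genes of hypertrophy and bone, 1 rose, none fell, and the median difference was 0.29, beside 9.79% higher over all named genes. COL10A1, the collagen of hypertrophic chondrocytes, had levels of 6.89, 8.91, 7.37 and 7.20 at 4 weeks, against 4.75, 5.11, 7.43 and 5.92 in control. The arrays overlapped, and the difference of 1.79 (SE 0.87, adjusted p = 0.219) did not pass. IHH, the hedgehog ligand of prehypertrophic cells, differed by 1.29 (adjusted p = 0.153) and PTH1R, the receptor for parathyroid hormone-related peptide that holds back hypertrophy, by 0.88 (adjusted p = 0.174). PTHLH, the peptide itself, differed by -0.59 (adjusted p = 0.257). VDR, the vitamin D receptor, was the called member at 0.69 (SE 0.20, adjusted p = 0.0422), and it lost its call without 4-week replicate 2, 3 or 4 or control replicate 1, 2 or 4 (adjusted p up to 0.131). The chondrocyte genes moved with 1 array: 4-week replicate 2 was the highest 4-week array in 3 of 3 hyaline cartilage genes and in 6 of 9 hypertrophy genes.

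FRZB, a secreted antagonist of WNT proteins found in articular cartilage, rose. It had levels of 4.40, 5.47, 5.06 and 4.87 at 4 weeks, against 3.61, 3.48, 3.33 and 4.10 in control. All 4-week arrays lay above all control arrays, the difference was 1.32 (SE 0.34, adjusted p = 0.0227), and 6 of its 7 kept probes were called higher. FRZB lost its call without 4-week replicate 2, 3 or 4 or control replicate 1, 2 or 3 (adjusted p up to 0.0857). Without control replicates 1 and 2, FRZB differed by 1.24 and was not called (adjusted p = 0.188). It was the called member of 9 measured WNT and hedgehog genes, whose median difference was 0.07. That share is near the 9.79% higher over all named genes. DKK1, another WNT antagonist, differed by 0.65 (adjusted p = 0.237), and the WNT ligand WNT11 by 0.75 (adjusted p = 0.365). None of 7 TGF-beta and BMP genes was called, with a median of 0.08: TGFB1 differed by 0.18 (adjusted p = 0.622), BMP2 by 0.41 (adjusted p = 0.531) and BMP4 by -0.02 (adjusted p = 0.976).

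Of 9 growth factor genes, 2 rose and none fell, where 9.79% of all named genes were higher. None of the 9 was called with normexp without dim spots. PRLR, the prolactin receptor, had levels of -2.41, -2.39, -2.27 and -2.21 at 4 weeks, against -3.70, -3.95, -3.69 and -3.03 in control. Every 4-week array lay above every control array, the difference was 1.27 (SE 0.16, adjusted p = 6.64e-05), and PRLR kept its call without any 1 array. IGF1R, the receptor of insulin-like growth factor, rose less, by 0.45 (SE 0.13, adjusted p = 0.0348), and lost its call without 4-week replicate 2, 3 or 4 or control replicate 1, 2 or 3 (adjusted p up to 0.102). The ligand IGF1 differed by -0.60 (adjusted p = 0.387). CCN2, connective tissue growth factor, lay higher on every 4-week array than on any control array, but the difference of 1.21 (SE 0.43, adjusted p = 0.0921) did not pass. FGF7, a fibroblast growth factor of mesenchymal cells, was not called by its brightest probe at -2.06 (adjusted p = 0.112), while 5 of its 6 kept probes were called lower, by -2.49 to -3.05.

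**Figure D4:**
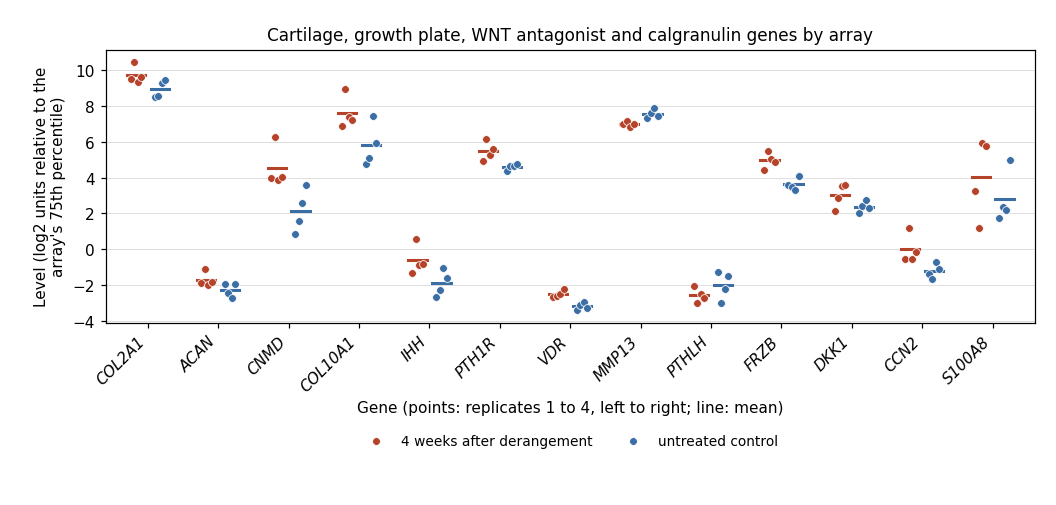
Level of cartilage, growth plate, WNT antagonist, growth factor and calgranulin genes (y axis, log2 relative to the 75th percentile) on each 4-week array (red) and each control array (blue), with the group mean as a line. FRZB and VDR do not overlap between the groups, CNMD and COL10A1 have 1 high 4-week array, and S100A8 is scattered in both groups.

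The 12 named genes with the largest fitted differences among called rises without overlap were mostly dim, and several are better known from other tissues. All but OVGP1 and IL2RA were above background on no control array by their brightest probe, so only a lower bound of their rise was measured and the fitted order among them has no meaning. GJA10, a connexin of neurons, had levels of -3.10, -3.04, -3.03 and -2.89 at 4 weeks, against -5.71, -5.71, -5.50 and -5.20 in control. The 4-week arrays lay within 0.3 units of each other, and none of the control arrays was above background. The rise was at least 1.74-fold for that probe (adjusted p = 9.96e-08), although another probe of GJA10 was above background on a control array. GJA5, a connexin of arteries and heart, was measured on all 8 arrays, at -0.83, -0.68, -0.62 and -0.44 at 4 weeks, against -2.23, -1.76, -1.98 and -1.81 in control. The groups did not overlap, and the difference was 1.30 (SE 0.17, adjusted p = 0.000119), a level 2.47-fold higher. The other gap junction genes measured were not called, among them GJA1, the main connexin of chondrocytes and bone cells, at -0.16 (adjusted p = 0.731). The brightest probe of each connexin is shown because it carries the rise.
GJA10: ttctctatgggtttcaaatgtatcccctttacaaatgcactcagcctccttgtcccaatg
GJA5: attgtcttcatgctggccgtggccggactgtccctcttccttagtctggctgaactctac

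TH, the enzyme that starts catecholamine synthesis, rose at least 1.41-fold (adjusted p = 8.2e-06), and CASP14, a caspase of the epidermis, rose at least 1.41-fold (adjusted p = 0.000322). The rise was at least 3.6-fold for APOC4, an apolipoprotein of the liver (adjusted p = 0.000964), at least 1.38-fold for the gene listed as RSSD-1 (adjusted p = 2.87e-07) and at least 1.64-fold for UPK1B, a uroplakin of the bladder lining (adjusted p = 0.0106). None of these 5 was above background on any control array, and their bounds hold for the processed signal. With normexp without dim spots none of the 5 was called, and APOC4 differed by 0.73 (adjusted p = 0.123), a smaller rise than its bound. OVGP1, an oviduct glycoprotein, had levels of -1.73, -1.45, -2.15 and -1.74 at 4 weeks, against -4.31, -3.92, -3.92 and -4.07 in control. It was above background on 1 control array, and differed by 2.29 (SE 0.24, adjusted p = 1.21e-05). With CASP14 and UPK1B it made 3 rises and no fall among 6 keratin and epithelial markers, beside 9.79% higher over all named genes. Another 7 markers on the arrays had no kept probe, and CASP14 and UPK1B passed the filter through the 4-week group alone. With normexp without dim spots 1 of the 6 was called higher and the median was 0.26, against 1.02. Without control replicates 1 and 2 there were 3 rises. PPARA, a lipid-sensing nuclear receptor of liver and muscle, rose at least 1.78-fold for its brightest probe (adjusted p = 0.00241), and all 3 of its kept probes were called higher, although another probe was above background on a control array.

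IL2RA and KCNA3, a cytokine receptor subunit and a potassium channel of T cells, were both called higher among 3 lymphocyte markers. The share higher over all named genes was 9.79%. Of 9 lymphocyte markers on the arrays, the other 6 had no kept probe, and KCNA3 passed the filter through the 4-week group alone. None of the 3 was called with normexp without dim spots, where the median was 0.22 against 1.75 in the main fit. None was called without control replicates 1 and 2 either. IL2RA differed by 1.75 (SE 0.51, adjusted p = 0.0409) and lost its call on leaving out any 1 of the 4-week arrays, or control replicate 1 or 3 (adjusted p up to 0.13). KCNA3 rose at least 1.4-fold (adjusted p = 0.0174) and lost its call without 4-week replicate 2 or 4 or control replicate 1 or 2 (up to 0.0552). CTLA4, the third marker, differed by 0.04 (adjusted p = 0.967). The summed level of the 3 was 0.423, 0.343, 0.288 and 0.41 at 4 weeks and 0.107, 0.207, 0.324 and 0.2 in control, far below the 75th percentile of any array.

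Ion channels gave 10 rises and 2 falls among 39 measured members, with a median difference of 0.16. Over all named genes 9.79% were higher and 6.15% lower. Of the ion channels, 1 rose and none fell with normexp without dim spots, where the median was 0.03, and 5 rose and 1 fell without control replicates 1 and 2. KCNQ1, a potassium channel of heart and epithelia, had levels of -0.27, -0.23, -0.49 and -0.32 at 4 weeks, against -1.73, -1.48, -1.50 and -1.36 in control. The groups were well apart, and the difference was 1.19 (SE 0.22, adjusted p = 0.00242), a level 2.28-fold higher. KCNJ11, the pore of the ATP-sensitive potassium channel, rose by 0.92 (SE 0.19, adjusted p = 0.00438) and KCNA5, a potassium channel of the atrium, by 0.81 (SE 0.16, adjusted p = 0.00446). KCNC1, a channel of fast-firing neurons, rose at least 1.16-fold (adjusted p = 0.00205) and TRPC1, a cation channel, at least 1.26-fold (adjusted p = 0.00475) by their brightest probes, though other probes of both were above background in control. All 5 kept their calls without any 1 array.

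Solute carriers gave 8 rises and 2 falls among 34 measured members, with a median of 0.31, beside the same 9.79% and 6.15% over all named genes. With normexp without dim spots there were 1 rise and 1 fall and a median of 0.09, and without control replicates 1 and 2 there were 4 rises and no fall. SLC12A3, the sodium chloride cotransporter of the kidney, rose at least 1.85-fold (adjusted p = 3.29e-06), and SLC47A2, a kidney exporter of organic cations, rose at least 1.26-fold (adjusted p = 0.000109). SLC29A2, a nucleoside transporter measured on all 8 arrays, had levels of -1.72, -1.46, -1.64 and -1.45 at 4 weeks, against -2.68, -2.53, -2.85 and -2.31 in control. The groups did not overlap, and the difference was 1.02 (SE 0.17, adjusted p = 0.000796). SLC22A6, an organic anion transporter, rose by 0.66 (SE 0.11, adjusted p = 0.00135) and SLC34A1, a kidney phosphate transporter, by 1.35 (SE 0.31, adjusted p = 0.012). The muscle and fat glucose transporter SLC2A4 was at least 4.01-fold lower (adjusted p = 0.0283), with its brightest probe above background on no 4-week array and another on at least 1. It also stands in the muscle list and lost its call without 4-week replicate 2 or 4 or control replicate 1 or 2 (adjusted p up to 0.0905).

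Across the 5 groups, the level of these rising genes lined up with the scan day in part. GJA10 averaged -5.53 in control, -2.52 at 1 week, -5.56 at 2 weeks, -3.02 at 4 weeks and -3.08 at 8 weeks. CXCR2 averaged -1.64 in control and -0.09, -1.65, -0.30 and -0.51 at these times. In both, the 2-week mean lay near that of control, whose scan day it shares, and the other means lay near each other. OVGP1 and GJA5 were above control at 2 weeks as well, at -2.84 and -1.03 against -4.05 and -1.95. KCNQ1 had another order, with -1.52 in control, -2.10 at 1 week, -0.90 at 2 weeks, -0.33 at 4 weeks and -1.68 at 8 weeks, so that its 4-week mean stood above those of the groups scanned on the same day. Differences between these other groups were not tested here.

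**Figure D5:**
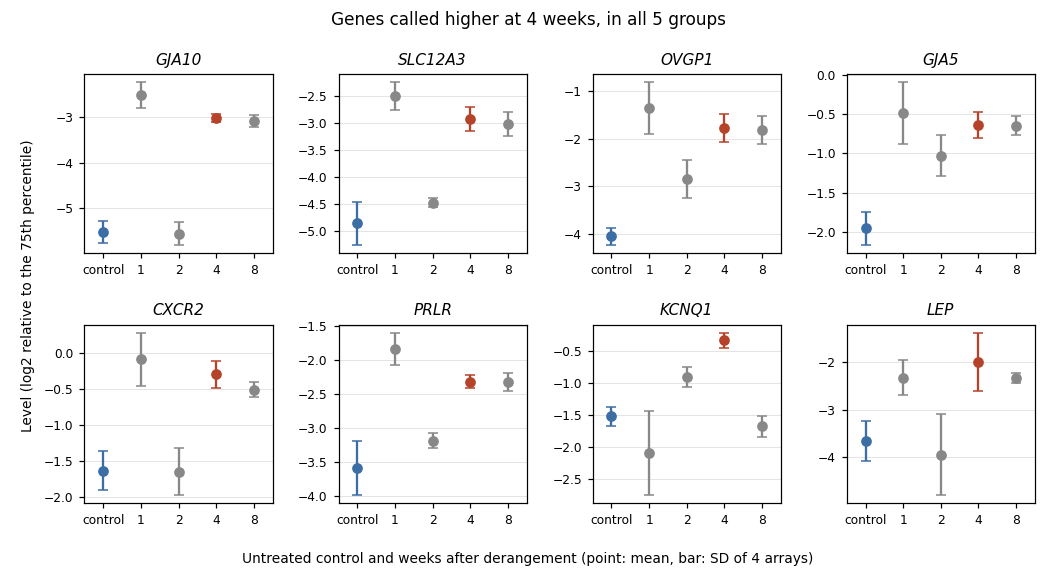
Mean level (y axis, log2 relative to the 75th percentile, one scale per panel) of 8 genes called higher at 4 weeks, in untreated control (blue), at 1, 2 and 8 weeks (grey) and at 4 weeks (red), with bars for the SD of 4 arrays. In GJA10, SLC12A3 and CXCR2 the 2-week mean lies close to control, in OVGP1 and GJA5 between control and 4 weeks, and in KCNQ1 the 4-week mean is the highest of the 5.

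The fibrous and vascular lists held few called genes. Of 11 fibrous matrix genes, 2 fell and none rose, a share near the 15.9% called over all named genes, and the median was -0.27. None was called without control replicates 1 and 2. LUM, lumican, a small proteoglycan that orders collagen fibrils, had levels of 6.38, 5.67, 5.88 and 5.64 at 4 weeks, against 7.78, 7.28, 6.87 and 6.21 in control. Control replicate 4 lay below the highest 4-week array, and the difference was -1.14 (SE 0.32, adjusted p = 0.0354). VCAN, versican, a large proteoglycan of loose matrix, had -1.64, -2.61, -1.76 and -2.82 at 4 weeks, against -0.99, -0.01, -0.61 and -1.27 in control, without overlap, and differed by -1.49 (SE 0.38, adjusted p = 0.0214). LUM lost its call without 4-week replicate 2, 3 or 4 or control replicate 1, 2 or 3 (adjusted p up to 0.124), and VCAN without 4-week replicate 2 or 4 or control replicate 2 or 3 (up to 0.0791). The fibrillar collagens were not called: COL1A2 differed by -0.27 (adjusted p = 0.433) and COL3A1 by -0.14 (adjusted p = 0.652). DCN, decorin, differed by -0.31 (adjusted p = 0.703) and FN1, fibronectin, by -0.49 (adjusted p = 0.206).

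TAGLN, transgelin, an actin-binding protein of smooth muscle and myofibroblasts, differed by -1.65 (SE 0.43, adjusted p = 0.0247), with levels of 0.07, -2.20, -1.29 and -0.72 at 4 weeks, against 0.70, 1.23, 0.56 and -0.03 in control. One 4-week array reached the range of control, and the call was lost without 4-week replicate 2 or 3 or control replicate 1, 2 or 3 (adjusted p up to 0.0938). ACTA2, smooth muscle actin, differed by -1.59 (adjusted p = 0.0767). None of 8 endothelial markers was called, with a median of -0.57: THBD, thrombomodulin, differed by -0.67 (adjusted p = 0.389) and NOS3, the endothelial nitric oxide synthase, by -0.48 (adjusted p = 0.178). None of 4 synovial and joint surface genes was called, among them CLU, clusterin, at -0.40 (adjusted p = 0.212), and HAS2, a hyaluronan synthase, at -0.05 (adjusted p = 0.959).

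The lists of bone-resorbing cells, blood and glycolysis held no called gene, and that of translation held few. None of 6 osteoclast genes was called, among them ACP5, tartrate-resistant acid phosphatase, at 0.40 (adjusted p = 0.332), and CTSK, cathepsin K, at -0.16 (adjusted p = 0.8), both bright in both groups. None of 3 erythroid genes was called, with HBA, alpha globin, at 0.58 (adjusted p = 0.539). None of 9 hypoxia and glycolysis genes was called, with HIF1A at -0.62 (adjusted p = 0.131) and GAPDH at -0.08 (adjusted p = 0.878), and none of 9 stress genes, 4 chaperone genes or 4 cell cycle genes. Of 19 ribosome and translation genes, 1 rose and 1 fell, a share below the 15.9% called over all named genes. EIF2B4, a subunit of a translation initiation factor, rose by 0.50 (SE 0.11, adjusted p = 0.00964), and RPL17, a ribosomal protein, fell, with a difference of -0.43 (SE 0.12, adjusted p = 0.0309). EIF2B4 kept its call without any 1 array, and RPL17 lost it without 4-week replicate 2, 3 or 4 or control replicate 2 or 3 (adjusted p up to 0.102).

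Lipid genes gave 3 rises and no fall among 13 measured, where 9.79% of all named genes were higher, and none was called with normexp without dim spots. LEP, leptin, had levels of -2.49, -1.12, -2.10 and -2.30 at 4 weeks, against -3.90, -3.11, -4.06 and -3.54 in control. The groups did not overlap, and the difference was 1.65 (SE 0.35, adjusted p = 0.00722), with 2 control arrays above background. PPARA and APOC4, described above, were the other rises, and CD36, a fatty acid receptor above background on no 4-week array, was not called (adjusted p = 0.225). Of 26 genes of xenobiotic metabolism, 3 rose and 1 fell, a share near the 15.9% called over all named genes, and none rose with normexp without dim spots. FMO2, a monooxygenase of the lung, rose at least 1.64-fold (adjusted p = 0.0018). CYP1A2, whose brightest probe was not called at 1.74 (adjusted p = 0.0904), had 4 of 5 kept probes called higher. ABCC9, a subunit of ATP-sensitive potassium channels in vessels, differed by -1.06 (SE 0.25, adjusted p = 0.0142) and lost its call without 4-week replicate 2 or control replicate 2 (adjusted p up to 0.0552).

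Most called probes have no gene name here. Of 23540 kept probes without a name, 1491 were called higher (6.33%) and 439 lower (1.86%). Among those above background on all 8 arrays, the largest rise was that of transcript ENSOCUT00000013474, with a mean of 4.21 ± 1.52 at 4 weeks and 1.66 ± 0.66 in control (SD, n = 4 arrays each, limma adjusted p = 0.0454). The largest fall was that of ENSOCUT00000007566, with -1.79 ± 1.24 at 4 weeks and 2.10 ± 1.78 in control (SD, n = 4 arrays each, limma adjusted p = 0.00227).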

How the data were processed

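Total RNA was labelled with Cy3 in a one-colour design. Spots were quantified by Agilent Feature Extraction, version 10.7.1.1, per the submitters' processing notes. The deposited values used are the processed signal of each spot, an intensity on a linear scale that is already background-subtracted per the file headers. The authors' value table, also intensity, held the same values for these 8 arrays to within rounding. From the intensity, log2 values were taken, less the 75th percentile of the array. Outlier spots were left out (18 to 38 per array), no spot was saturated, and spots of a probe were averaged. Kept probes were well above background on 3 or more of the 4 arrays of either group: 25512 of 43603 (58.5%), 1910 through the 4-week group alone and 560 through control alone. The number of arrays limits the precision.

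Differences came from limma 3.58.1 (R 4.3.3; lmFit, eBayes) with 5 group means over 20 arrays, two-sided p-values and the Benjamini-Hochberg method. In simulated data over 25512 probes, 59% of changes of 1 log2 unit and 92% of those of 2 were recovered. The simulated noise was independent and normal, with 1 spread per probe averaged over the 5 groups and no slide or day effect. These rates therefore do not cover the wide control spread of the muscle genes or the scan day. Names came from the files and a RefSeq gene table, for 3196 probes (7.33%) and 1044 genes, of which 715 had a kept probe. Each gene is represented by the brightest of its kept probes over the 8 arrays. Genes named are the 12 largest called rises and falls without overlap between groups, up to 5 members of each list with the lowest p, and a fixed panel. The panel genes SOX9, COL1A1, VEGFA, TGFB3, S100A9, HBB and PRG4 had no kept probe under that name. Some genes that the rule would name are not reported here. The comparison, lists and panel were chosen with earlier results of these data known. Replicate numbers did not pair the samples: same-numbered arrays correlated at 0.021, -0.036, -0.123 and -0.027 in their deviations from the group means. Alternatives covered scaling, background correction, the filter, the value table, the arrays fitted and a replicate block.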

Additional observations from a re-analysis of the deposited data

Results flagged for a closer look

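In 158 genes named by the rule, 17 of 316 groups of 4 arrays (5.38%) had an array far from the other 3 by Dixon's 95% criterion. Chance gives about 1 in 20 groups. Values are levels in log2 units relative to the 75th percentile.

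At 4 weeks, replicate 2 was far above the others in CNMD (6.27), APOE (1.12), HAS2 (-2.41) and SOD3 (-1.73), and far below in CD36 (-6.13). Replicate 1 was far above in MYH7 (-4.17) and far below in EIF2B4 (2.98). Replicate 4 was far above in GJB1 (4.27) and SULT2A1 (-2.66) and far below in ITGAV (1.21). In control, replicate 1 was far above in BMP2 (2.44) and far below in HTR2A (-4.27). Replicate 2 was far above in CCL2 (0.18) and LRP5 (-0.06) and far below in NEFM (-3.80). Replicate 4 was far above in CAMP (3.93) and SLC47A2 (-4.38). Of these genes, EIF2B4, MYH7, SLC47A2 and SULT2A1 were called.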

How the results depend on the processing

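The 2170 called probes (1592 higher, 578 lower) and 114 called genes (70 higher, 44 lower) depended on the background correction. Planned normexp left 28 probes (17 higher, 11 lower) and 2 genes (0 higher, 2 lower), with 2115 probes at unadjusted p under 0.05. In that fit spots dimmer than their local background entered the background model: 1 on control replicate 3 (-3268), 15 on 2-week replicate 4 (down to -43340), and, less far below, 7 and 9 on 1-week replicates 1 and 2 and 2 on 8-week replicate 1. Without such spots, a choice made after seeing the data, normexp gave 563 probes (315 higher, 248 lower) and 37 genes (13 higher, 24 lower), all 37 among the main calls. The 21 called genes above background on no control array lost their calls there: GJA10 had adjusted p = 0.143, TH 0.242 and SLC12A3 0.312. CXCR2 (0.00272), GJA5 (0.00259), KCNQ1 (0.0124), TNNC2 (0.0027), MYH7 (0.000556), PLAU (0.0383) and MMP12 (0.0129) were called. The muscle list then had 12 falls and no rise.

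With the 8 arrays alone, 370 probes and 24 genes were lower. Centring on the median gave 1160 lower probes. Requiring 3 or more arrays above background in both groups gave 1021 probes (725 higher, 296 lower) and 54 genes (30 higher, 24 lower). Without control replicates 1 and 2 there were 681 probes (579 higher, 102 lower) and 49 genes (37 higher, 12 lower). Leaving out 1 array gave 1185 to 2628 probes (967 to 1739 higher, 212 to 916 lower) and 67 to 129 genes (46 to 71 higher, 19 to 58 lower), and 42 of the 70 rises and 15 of the 44 falls were called in all 8 such fits. The replicate block gave 2050 probes (1551 higher, 499 lower) and 68 rises and 47 falls among genes. Reversed signs came from planned normexp in CASP2 (-0.23), FMO2 (-0.07), KCNA3 (-0.07), KCNA5 (-0.07), KCNC1 (-0.23), SLC47A2 (-0.15), SULT2A1 (-0.08), TRPC1 (-0.21) and VDR (-0.01), and from normexp without dim spots in CASP2 (-0.02). Beyond the spots named, the cause was not tested. The quantile, no-filter, value-table and all-4-arrays settings kept the counts of probes and genes within 1.5 times, and slide and scan day could not be fitted.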

Other observations

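Some called genes outside the lists and the largest changes are given here, chosen after their values were seen because they were called in every fit that left out 1 array and under normexp without dim spots. AHSG, fetuin-A, a liver glycoprotein that binds mineral, had levels of -1.58, -1.40, -1.42 and -1.66 at 4 weeks, against -3.54, -2.89, -2.72 and -2.57 in control, without overlap, and differed by 1.41 (SE 0.21, adjusted p = 0.000278). C9, the last component of the complement membrane attack complex, had -1.18, -1.15, -1.14 and -1.07 at 4 weeks, against -2.37, -1.70, -1.65 and -1.82 in control and differed by 0.75 (SE 0.13, adjusted p = 0.00112). Both were above background on all 8 arrays and higher on every 4-week array than on any control array. CSN2, a milk casein, differed by 1.15 (SE 0.17, adjusted p = 0.000321), CGA, the alpha subunit of pituitary hormones, by 1.70 (SE 0.25, adjusted p = 0.000332), TUFT1, an acidic protein first described in enamel, by 1.34 (SE 0.25, adjusted p = 0.00255), and PRKG1, a cGMP-dependent kinase, by 1.08 (SE 0.24, adjusted p = 0.00949). AHSG, C9, CSN2 and CGA were also called without control replicates 1 and 2 (adjusted p = 0.00754, 0.00641, 0.0146 and 0.00305), and TUFT1 and PRKG1 were not (0.0853 and 0.0712).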
